A study of Mus musculus with 12 samples.

Results

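White adipocyte genes were followed in the thoracic aorta of ApoE-/- mice given AZ6983 and of control mice. These genes encode the hormones, enzymes, receptors and transcription factors by which a fat cell stores triglyceride and signals to other tissues. The 34 genes were chosen by symbol from genes known to be expressed by white adipocytes. All 34 were rows of the deposited count table, out of 25284 genes, and all 34 passed the filter on low counts, out of 15857 genes that did.

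The 12 mice were male ApoE-/- mice on a C57BL/6 background, which lack apolipoprotein E and develop atherosclerosis, and all 12 were fed a high-fat diet. AZ6983, an agonist of the alpha 7 nicotinic acetylcholine receptor (α7nAChR), was given to 6 mice (called A1 to A6 here) at 50 µmol per kg per day through osmotic minipumps placed under the skin. The other 6 mice (C1 to C6) received vehicle through the same kind of pump. Treatment lasted 8 weeks and every mouse was 18 weeks old at the end. The deletion of Apoe is carried by every cell and by both groups, so the comparison is between treated and untreated mice of one genotype. Total RNA of the whole thoracic aorta was sequenced, 1 library per mouse, and the sources used here do not say how much of the surrounding fat was taken with the vessel.

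Perivascular fat surrounds the aorta and is in contact with its outer wall. A white adipocyte holds 1 large lipid droplet, takes up glucose and fatty acids under insulin, esterifies fatty acids onto glycerol phosphate and secretes hormones such as adiponectin and leptin. A brown adipocyte holds many small droplets and burns lipid through the uncoupling protein UCP1, and the fat around the thoracic aorta of mice is known to resemble brown fat. Many of the genes described here, among them Fabp4, Gpd1, Pck1, Acsl1, Slc2a4 and Adipoq, are also expressed by brown adipocytes.

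Counts on genes were 23810036 to 35864666 per mouse and were turned into CPM, a gene's share of its library on a fixed total, after TMM scaling, which corrects for differences in composition between libraries. Mean Apoe was 8.05 CPM for control and 9.56 CPM for AZ6983. The share of the table's reads that fell on no gene was 8.02% to 12.7% in controls and 11.2% to 14.9% in AZ6983 mice. The libraries also carry numbers from 1 to 12, of which controls hold 3 to 7 and 12, so the number is nearly separated by group. Mouse C2 holds number 12 and had a no-gene share of 12.7%, and the other 5 controls had at most 10.4%. Mouse A5 stood apart in its TMM factor, 0.837 against 0.987 to 1.07 in the other mice. Smooth muscle markers, 8 genes of the vessel wall, summed to 11035 CPM in A5 and to 14141 to 18907 CPM in the other mice. Values without C2, A5 or C6 are given beside many of the results below, most often without A5. These mice were singled out with earlier results of these data known. Values without them, with their q, are therefore descriptions and not independent tests.

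The 4 genes of the classic fat cell hormones are shown by the 250 bases that precede their transcription start (RefSeq, GRCm38.p6, each on the plus strand, 5′ to 3′), since Adipoq anchors the comparisons below and Lep, Retn and Cfd showed the widest ranges among the secreted factors. Capitals mark a palindrome bound by C/EBP transcription factors, TTGCGCAA, which was the only motif among those searched that these 4 windows held.
Adipoq, chr16:23146286-23146535: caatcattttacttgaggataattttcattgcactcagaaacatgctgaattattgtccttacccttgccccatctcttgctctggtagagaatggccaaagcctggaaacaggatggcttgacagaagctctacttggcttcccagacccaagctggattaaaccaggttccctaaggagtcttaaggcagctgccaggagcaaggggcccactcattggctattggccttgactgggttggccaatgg
Lep, chr6:29059971-29060220: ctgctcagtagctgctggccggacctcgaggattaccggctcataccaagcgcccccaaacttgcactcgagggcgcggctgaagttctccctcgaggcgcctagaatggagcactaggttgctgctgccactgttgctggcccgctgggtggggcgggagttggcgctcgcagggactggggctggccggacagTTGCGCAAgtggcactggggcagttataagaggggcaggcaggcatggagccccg
Cfd, chr10:79890603-79890852: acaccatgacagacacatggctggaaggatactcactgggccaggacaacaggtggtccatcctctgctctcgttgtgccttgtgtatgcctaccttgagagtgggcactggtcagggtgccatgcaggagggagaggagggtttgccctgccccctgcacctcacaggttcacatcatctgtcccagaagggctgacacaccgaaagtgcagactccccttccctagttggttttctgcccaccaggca
Retn, chr8:3655520-3655769: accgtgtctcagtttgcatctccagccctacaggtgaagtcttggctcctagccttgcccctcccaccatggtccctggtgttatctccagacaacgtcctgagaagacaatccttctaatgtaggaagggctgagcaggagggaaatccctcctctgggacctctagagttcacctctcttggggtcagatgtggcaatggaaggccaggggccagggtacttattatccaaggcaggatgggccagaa

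RefSeq promoters, each of 250 bases before and 50 bases after the start, were matched for 23 of the 34 genes and came to 30 promoters. The C/EBP palindrome was in 1 of the 30 (3.33%), that of Lep, 55 bases before the start, and in 0.183% of all 32851 mouse promoters of the same length. The nuclear receptor core motif AGGTCA, read on both strands, was in 6 of the 30 (20%), against 16.3% of all promoters. The TATA box TATAAA was in 3 of the 30 (10%), against 13.6%. A direct repeat of that core, 2 copies with 1 base between them, was in 0 of the 30 and in 0.0396% of all. The shares are descriptions of these windows and were not tested.

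Fat cell RNA was present in every aorta. Per kilobase of exon and averaged over the 12 mice, the level was highest for Gpd1 (800 CPM per kb), followed by Cfd (659), Fabp4 (580), Car3 (516), Pck1 (309) and Adipoq (266 CPM per kb). Lep (3.39 CPM per kb) and Slc7a10 (1.09 CPM per kb), which are known as markers of white as opposed to brown adipocytes, were the lowest of the 34. The brown fat marker Ucp1 was at 1374 CPM per kb and so lay above each of the 34 genes on this scale. The level of the 34 genes can therefore not be read as that of white fat alone, and they are called adipocyte genes from here on.

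**Figure D1:**
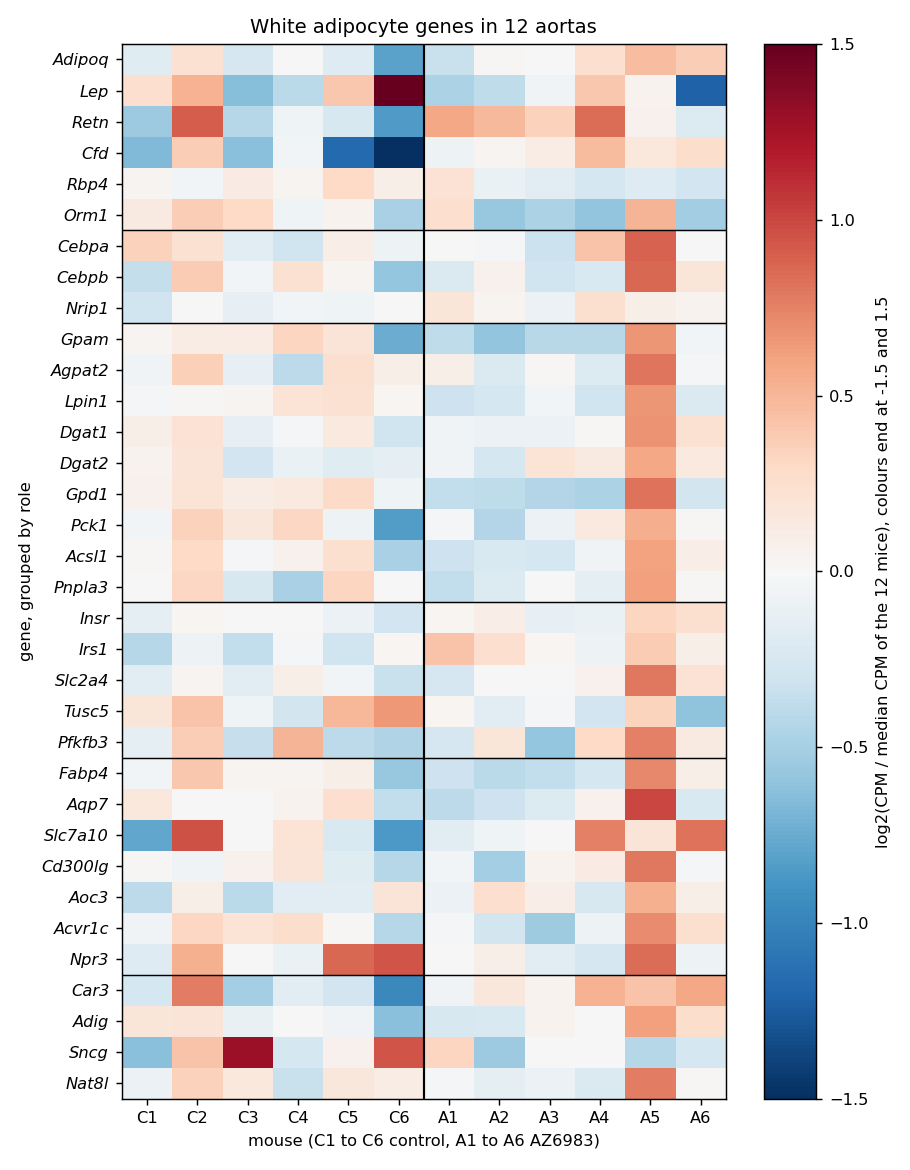
The heat map shows log2 of CPM over the median of the 12 mice for each of the 34 genes (rows, grouped by role, with thin lines between roles) in each mouse (columns, controls C1 to C6 left and AZ6983 mice A1 to A6 right of the line). The column of A5 is the highest of 12 for 23 genes and that of C6 the lowest for 14.

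The fat content of the libraries was read as the summed CPM of the 34 genes. Fabp4, Gpd1, Acsl1, Car3 and Pck1 made up most of it, at means of 2650, 2559, 1300, 1256 and 1051 CPM in controls. In AZ6983 mice their means were 2561, 2178, 1271, 1699 and 1070 CPM. The sum was lowest in C6 (9533 CPM) among controls, had a median of 12678 CPM and was highest in C2 (16191 CPM). In AZ6983 mice it was lowest in A2 (11010 CPM), had a median of 11857 CPM and was highest in A5 (19686 CPM). The ranges of the groups overlapped over most of their length, and A5 was the only AZ6983 mouse above C2. Control mice averaged 12740 ± 2150 CPM and AZ6983 mice 13187 ± 3335 CPM (SD, n = 6 each), which differ by less than either SD. Without C2 the control mean was 12050 ± 1485 CPM (SD, n = 5), and without A5 the AZ6983 mean was 11888 ± 1110 CPM (SD, n = 5). The genes took 1.003% to 1.60% of counts on genes in controls and 1.10% to 1.65% in AZ6983 mice. Mean log2 CPM, which weighs each of the 34 genes equally, was 6.97 ± 0.165 in controls and 7.02 ± 0.244 in AZ6983 mice (SD, n = 6 each). Without C2 the control mean was 6.91, and without A5 the AZ6983 mean was 6.92. In RNA from a whole vessel, fewer fat cells and less RNA per fat cell cannot be told apart.

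**Figure D2:**
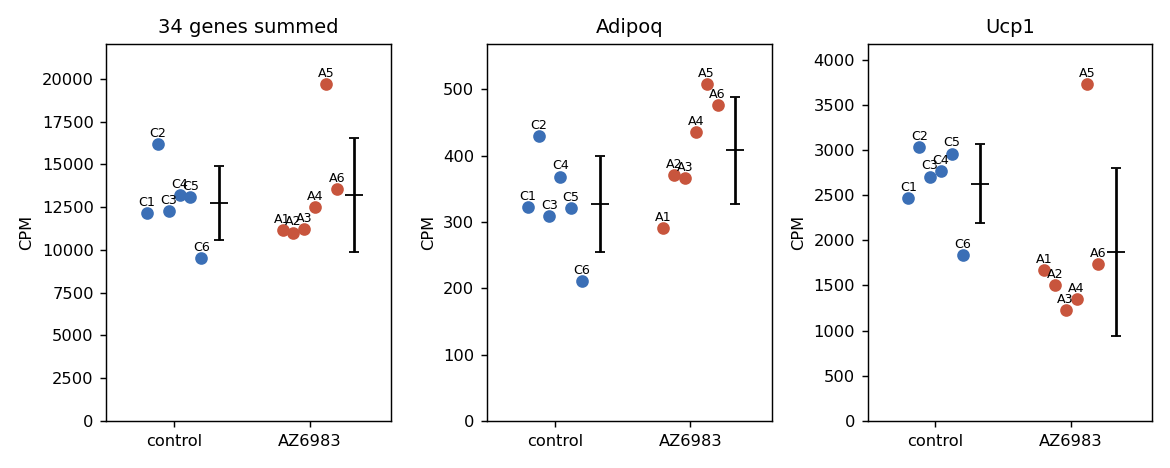
CPM in each mouse (points, blue for control and red for AZ6983) is plotted for the sum of the 34 genes, for Adipoq and for Ucp1, with the group mean and 1 SD as bars beside the points. For the sum and for Ucp1, A5 stands above the other 5 AZ6983 mice, and C6 is the lowest control in all 3 panels.

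Mouse C2 had the most fat cell RNA among controls. It was the highest of 12 mice for Car3, Retn and Slc7a10 (3.15% of all tested genes) and the highest control for 18 of the 34 genes, against 18.5% of all tested genes, and its level was a median of 1.22-fold the median of the other 5 controls, against 1.01-fold over all tested genes. The excess was uneven. Retn was 2.54-fold, Slc7a10 2.28-fold, Car3 2.06-fold, Cfd 2.05-fold and Pfkfb3 1.64-fold the median of the other controls, and these 5 genes were the ones past 1.5-fold (8.39% of all tested genes were). Gpd1, at 1.07-fold, Lpin1, at 0.988-fold, and Rbp4, at 0.912-fold, were near the other controls. C2 also had the most skeletal muscle RNA of the controls, with 10 marker genes summing to 577 CPM against 5.88 to 231 CPM in the other 5, and its smooth muscle sum of 14141 CPM was the lowest control value. The part of these other tissues in the C2 values was not tested.

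Mouse A5 had a larger and broader excess in TMM-scaled CPM. Its TMM factor of 0.837 raises its CPM. As a share of counts on genes, before that scaling, the 34 genes took 1.65% in A5 and 1.60% in C2. A5 was the highest of all 12 mice for 23 of the 34 genes, against 18.5% of all tested genes, and the lowest for 0. Its median level was 1.60-fold the median of the other 5 AZ6983 mice, against 0.976-fold over all tested genes, and 19 of the 34 genes were past 1.5-fold, against 9.33%. Those most above were Aqp7 (2.34-fold), the glycerol channel of fat cells, Gpd1 (2.30-fold), Gpam (2.11-fold) and Cebpb (2.10-fold). Retn (0.746-fold), Sncg (0.745-fold), Rbp4 (0.972-fold) and Cfd (1.03-fold) did not share this excess. Past 1.5-fold, Pfkfb3 was the only gene that C2 and A5 shared, 1 of the 5 in C2 and 1 of the 19 in A5. Brown fat markers moved with them in A5, where the brown fat markers (15 listed, 14 tested) summed to 6851 CPM, against at most 3700 CPM in the other AZ6983 mice. The part of brown fat or of tissue composition in the A5 values was not tested.

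Mouse C6 was at the other end. It was the lowest of 12 mice for 14 of the 34 genes, against 10.3% of all tested genes, among them Adipoq, Cfd, Retn, Car3, Fabp4 and Pck1. It was the highest for 3 of the 34, Lep, Npr3 and Tusc5, a share near the 9.55% of all tested genes. C6 had the highest macrophage marker sum of the 12 mice (1146 CPM) and the highest smooth muscle sum of the controls (18890 CPM). Its sums over the brown fat markers (3216 CPM), the other lipid droplet genes (4968 CPM) and the capillary markers of fat (1154 CPM) were the lowest of the controls. Single abundant genes made up much of 2 of these sums, Ucp1 (1834 CPM) of the brown fat sum and Cd36 (942 CPM) of the capillary sum. The sums are not separate readings, since the droplet list shares genes with both other lists, among them Cd36, Fabp5 and Plin5. Other markers on these lists went the other way. Prdm16 (86.3 CPM), Meox2 (21.6 CPM) and Fabp5 (106 CPM) were highest of the 12 mice in C6. The part of these tissues in the C6 values was not tested.

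AZ6983 was then compared with control gene by gene, with edgeR's quasi-likelihood test over all 15857 tested genes and the study's threshold of 10% FDR. SE is the standard error of a log2 fold change, and q is its p after Benjamini-Hochberg adjustment over all tested genes. At that threshold edgeR called 0 genes (0%) and therefore 0 of the 34. The smallest q among the 34 was 0.447, for Irs1. An unadjusted p under 0.05 was reached by 5 of the 34, against 10.2% of all tested genes, with Cfd, Irs1 and Nrip1 higher in AZ6983 mice (7.38% of all genes) and Lep and Rbp4 lower (2.81%). The log2 fold change was above 0 for 22 genes and below 0 for 12, with a median of 0.11, against 0.01 over all tested genes. DESeq2, the tool of the study, called 92 genes with its defaults and 84 on the genes that passed edgeR's filter, and again 0 of the 34 (smallest q 0.147 and 0.128, both for Irs1). In none of the 34 were the groups free of overlap in either direction, against 0.259% of all tested genes with AZ6983 mice higher and 0.151% with AZ6983 mice lower.

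The share of reads on no gene moved with treatment, in the ranges given above. With that share as a covariate, edgeR called 0 genes, and 0 of the 34 reached an unadjusted p under 0.05, against 2.95% of all tested genes. The median log2 fold change of the 34 was then -0.0044, with 16 above 0 and 18 below. Every control but C2 had a lower no-gene share than any AZ6983 mouse. The share and the treatment can therefore hardly be told apart in this fit.

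**Figure D3:**
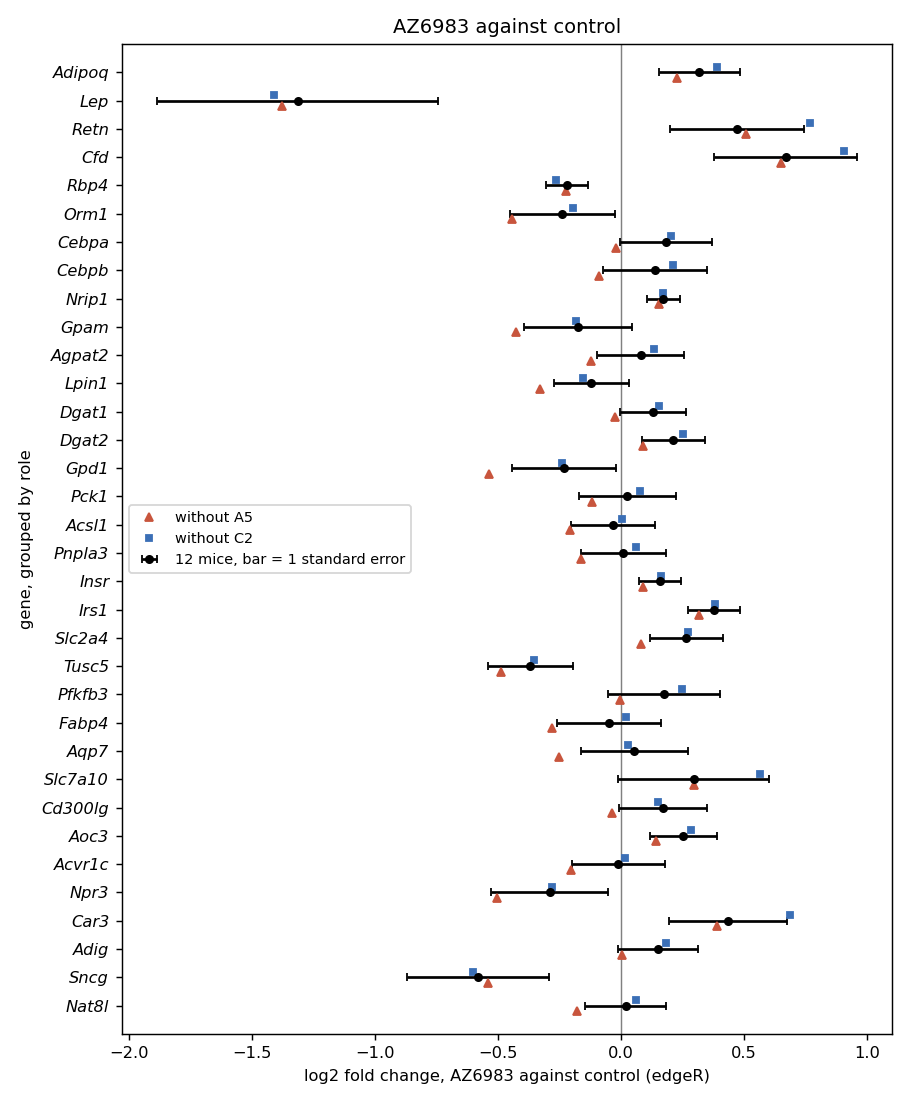
The log2 fold change of AZ6983 against control from edgeR (x axis) is shown for each of the 34 genes (y axis, grouped by role), with black points for all 12 mice and bars of 1 standard error, blue squares without C2 and red triangles without A5. Without A5 22 of the 34 points lie below 0, against 12 with all mice.

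Among the secreted factors, adiponectin, the hormone that raises insulin sensitivity, is encoded by Adipoq (chr16:23146536-23158028). In controls Adipoq was lowest in C6 (211 CPM), had a median of 322 CPM and was highest in C2 (430 CPM). In AZ6983 mice it was lowest in A1 (291 CPM), had a median of 403 CPM and was highest in A5 (508 CPM). The groups overlapped, although A4, A5 and A6 lay above every control. Means were 327 ± 72.3 CPM and 408 ± 80.1 CPM (SD, n = 6 each), and edgeR's log2 fold change was 0.32 (SE 0.165, q = 0.523).

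Cfd (chr10:79890853-79892655) encodes complement factor D, also called adipsin, a protease of the alternative complement pathway. Control values ran from 181 CPM (C6) over a median of 422 CPM to 855 CPM (C2), and AZ6983 values from 629 CPM (A1) over a median of 725 CPM to 920 CPM (A4). All 6 AZ6983 mice lay above 4 of the controls, C1, C3, C5 and C6, and C2 and C4 lay among them. The spread was wider in controls, with means of 469 ± 243 CPM and 746 ± 101 CPM (SD, n = 6 each). Its log2 fold change was 0.67 (SE 0.292, q = 0.477), and 0.91 without C2 (q = 0.297).

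Retn (chr8:3655770-3660110) encodes resistin, which in mice is made by adipocytes and opposes insulin action. It was at 15.6 CPM (C6) to 53.1 CPM (C2) in controls, with a median of 22.4 CPM, and at 24.4 CPM (A6) to 50.4 CPM (A4) in AZ6983 mice, with a median of 37.6 CPM. C2 was the highest of all 12 mice, and the next control, C4, was at 27.0 CPM. The difference on the log2 scale was 0.47 (SE 0.271, q = 0.548) with all mice and 0.77 (SE 0.190, q = 0.277) without C2.

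Lep (chr6:29060220-29073877) encodes leptin, the satiety hormone that reports fat stores to the brain. Mouse C6 had 57.5 CPM (1692 counts), and the other 5 controls had 4.79 to 10.7 CPM (139 to 284 counts). AZ6983 mice ran from 3.21 CPM (A6) over a median of 6.48 CPM to 9.84 CPM (A4), within or below the range of those 5 controls. The log2 fold change of -1.31 (SE 0.572, q = 0.475) was that of C6 for the most part, since without C6 it was -0.29 (q = 0.693). C6 had the lowest Adipoq of the 12 mice.

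Rbp4 (chr19:38116629-38125281) encodes retinol binding protein 4, the vitamin A carrier of plasma. Control values were 63.7 to 80.6 CPM with a median of 68.6 CPM, and AZ6983 values 53.7 to 76.2 CPM with a median of 58.0 CPM. Of the AZ6983 mice 5 lay below every control, and A1, at 76.2 CPM, lay above 5 of the 6 controls. The log2 fold change was -0.22 (SE 0.0869, q = 0.456), and -0.30 without A1 (q = 0.259). Orm1, an acute-phase plasma protein whose reads can be shared with its close paralogues Orm2 and Orm3, was at 23.5 to 42.4 CPM in controls and at 21.8 to 47.0 CPM in AZ6983 mice (log2 fold change -0.24, q = 0.682, and -0.44 without A5, q = 0.352).

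**Figure D4:**
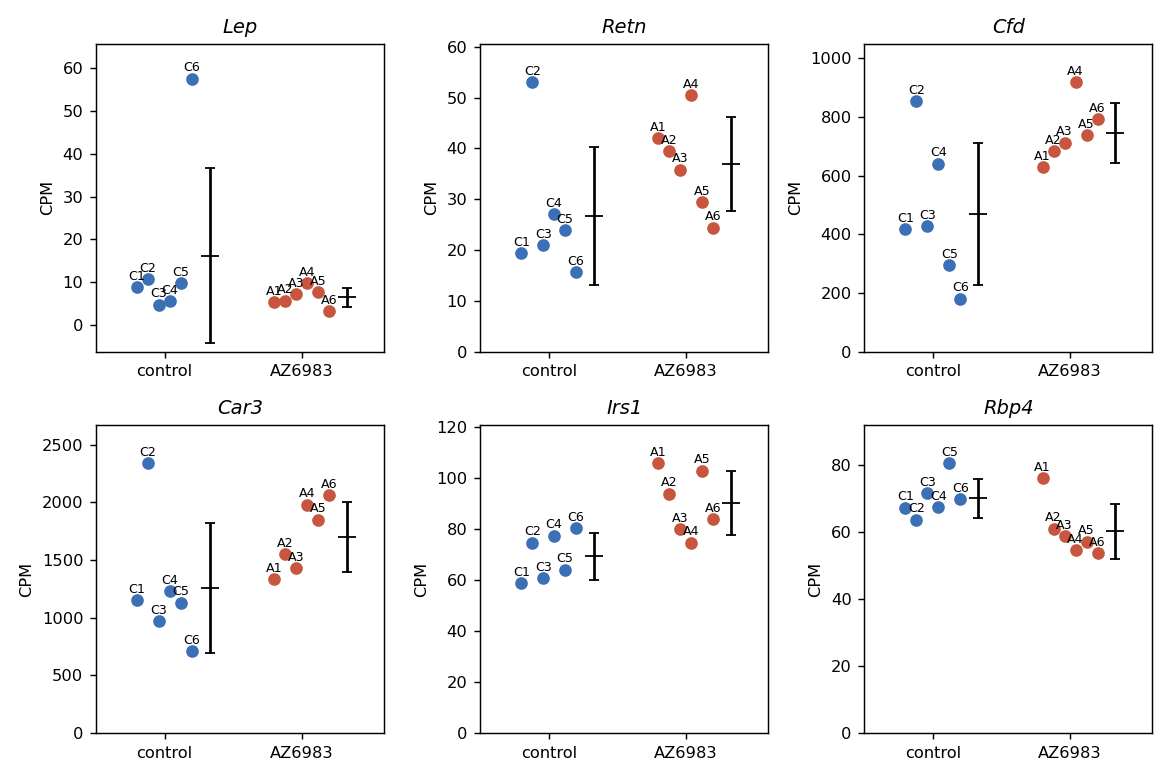
CPM in each mouse (points, blue for control and red for AZ6983) is shown for Lep, Retn, Cfd, Car3, Irs1 and Rbp4, with the group mean and 1 SD as bars beside the points. Single controls stand apart for Lep (C6) and for Retn and Car3 (C2). For Irs1 4 AZ6983 mice lie above all controls, and for Rbp4 5 lie below all controls.

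Of the transcription factors and co-regulators, Cebpa and Cebpb encode C/EBP factors that drive adipocyte differentiation, and Nrip1 encodes a co-repressor of nuclear receptors that restrains energy use in fat. Nrip1 (chr16:76287400-76373827) was at 77.0 to 95.0 CPM in controls, with a median of 91.5 CPM, and at 88.9 to 112 CPM in AZ6983 mice, with a median of 99.6 CPM. All AZ6983 mice but A3 lay above every control. Its log2 fold change was 0.17 (SE 0.0669, q = 0.450), a small difference between tight groups. Cebpa (log2 fold change 0.18, q = 0.723) and Cebpb (0.14, q = 0.828) were highest in A5, at 199 CPM and 95.3 CPM, and without A5 their log2 fold changes were -0.02 and -0.09.

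The 9 genes of glycerol and triglyceride synthesis all had their highest value in A5. Gpd1 (chr15:99717515-99725005) encodes the glycerol-3-phosphate dehydrogenase that makes the glycerol backbone of triglyceride from a glycolytic intermediate. Its control values were 2228 CPM (C6) to 2856 CPM (C5), with a median of 2560 CPM. In AZ6983 mice A1, A2, A3, A4 and A6 were at 1675 to 1930 CPM, all below every control, and A5 was at 4126 CPM. With all mice the log2 fold change was -0.23 (SE 0.211, q = 0.688). Without A5 it was -0.54 (SE 0.0829, q = 0.0604), which passed 10% FDR, and Gpd1 was then the only one of the 34 called, among 27 of 16011 genes (0.169%). Without both A5 and C2 the value was -0.51 and q was 0.102, just outside the threshold.

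Lpin1, which encodes lipin 1, the phosphatidate phosphatase, had the same arrangement. Controls were at 249 to 297 CPM, the 5 AZ6983 mice other than A5 at 204 to 246 CPM and A5 at 399 CPM. Its log2 fold change was -0.12 (q = 0.786) with all mice and -0.33 (SE 0.0724, q = 0.155) without A5. Gpam, the mitochondrial acyltransferase of the first esterification step, was at 171 to 359 CPM in controls and 190 to 454 CPM in AZ6983 mice, with log2 fold changes of -0.17 and, without A5, -0.43 (q = 0.785 and 0.337). The remaining 6 were Agpat2, Dgat1 and Dgat2, which carry out later acylation steps, Acsl1, which activates fatty acids, Pck1, the key enzyme of glyceroneogenesis, and Pnpla3, a lipase-like protein of the lipid droplet. Their log2 fold changes lay between -0.03 (Acsl1) and 0.21 (Dgat2), with q of 0.561 or more, and without A5 between -0.21 (Acsl1) and 0.09 (Dgat2). The median of the 9 genes was 0.01 with all mice and -0.16 without A5.

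In the insulin and glucose group, Irs1 (chr1:82233101-82291416) encodes the docking protein that passes the signal from the insulin receptor onward. Control values were 58.7 CPM (C1) to 80.4 CPM (C6), with a median of 69.4 CPM, and AZ6983 values 74.7 CPM (A4) to 106 CPM (A1), with a median of 88.9 CPM. A1, A2, A5 and A6 lay above every control, and A3, at 80.1 CPM, and A4 lay within the control range. The means were 69.4 ± 9.32 CPM and 90.2 ± 12.6 CPM (SD, n = 6 each), and the log2 fold change was 0.38 (SE 0.107, q = 0.447). With each mouse left out in turn it stayed between 0.32 and 0.43, and its smallest q was 0.277.

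Insr, the insulin receptor, was at 137 to 170 CPM in controls and at 153 to 208 CPM in AZ6983 mice (log2 fold change 0.16, q = 0.530, and 0.09 without A5). Slc2a4, the insulin-responsive glucose transporter GLUT4, was at 125 to 168 CPM in controls and at 133 to 274 CPM in AZ6983 mice, and its log2 fold change was 0.27 with A5 and 0.08 without (q = 0.538 and 0.710). Tusc5, a membrane protein that takes part in GLUT4 trafficking and is now called Trarg1, was lowest in A6 (59.1 CPM) and highest in C6 (141 CPM). Its log2 fold change was -0.37 (SE 0.173, q = 0.494) and -0.49 without A5 (q = 0.303). Pfkfb3, which sets the level of an activator of glycolysis, ranged from 102 CPM (A3) to 257 CPM (A5), with a log2 fold change of 0.18 (q = 0.791) that was -0.01 without A5.

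None of the 7 membrane receptors, channels and carriers reached an unadjusted p under 0.05. Fabp4, the fatty acid binding protein of adipocytes, was at 1757 to 3452 CPM in controls and 1966 to 4311 CPM in AZ6983 mice, and its log2 fold change of -0.05 (q = 0.948) became -0.28 without A5 and 0.02 without C2. Aqp7 was at 32.3 to 49.6 CPM in controls, at 31.9 to 43.7 CPM in the 5 AZ6983 mice other than A5 and at 83.9 CPM in A5, so that its log2 fold change was 0.05 with A5 and -0.25 without. Npr3, which clears natriuretic peptides, was above 100 CPM in C5, C6 and A5 and at 49.0 to 84.2 CPM in the other 9 mice, and its log2 fold change of -0.29 (q = 0.654) became -0.50 without A5 and -0.16 without C6. Slc7a10, an amino acid transporter of white adipocytes, was the least abundant of the 34, at 1.12 to 3.95 CPM with as few as 33 counts per control mouse, and had a log2 fold change of 0.30 (q = 0.730) that became 0.57 without C2 (q = 0.396) and 0.17 without C6 (q = 0.844). Cd300lg, a mucin-like receptor also made by capillary endothelium, Aoc3, a surface amine oxidase also made by smooth muscle, and Acvr1c, the activin-type receptor ALK7, had log2 fold changes of 0.17, 0.25 and -0.01 (q of 0.533 to 0.990), and of -0.03, 0.14 and -0.20 without A5.

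Of the 4 other genes, Car3 (chr3:14863512-14872523) encodes carbonic anhydrase 3, among the most abundant proteins of white fat and also made by skeletal muscle. In controls it was lowest in C6 (708 CPM), had a median of 1143 CPM and was highest in C2 (2338 CPM). AZ6983 mice were at 1326 CPM (A1) to 2063 CPM (A6), with a median of 1698 CPM. All 6 AZ6983 mice thus lay above the 5 controls other than C2. On the log2 scale AZ6983 minus control was 0.44 (SE 0.240, q = 0.537) with all mice and 0.69 (SE 0.169, q = 0.273) without C2. Skeletal muscle markers summed to 577 CPM in C2, 565 CPM in A5 and 574 CPM in A6, which are among the mice with high Car3, but to 38.1 CPM in A4, where Car3 was at 1980 CPM. Their part in the Car3 values was not tested. Sncg, gamma-synuclein, which is made by fat and by neurons, was at 26.8 to 101 CPM in controls and at 28.5 to 51.8 CPM in AZ6983 mice (log2 fold change -0.58, q = 0.507). Adig, adipogenin, and Nat8l, the enzyme that makes N-acetylaspartate, had log2 fold changes of 0.15 and 0.02 (q = 0.738 and 0.974), and of 0.01 and -0.18 without A5.

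The balance of directions among the 34 genes turned on mouse A5, and with any other single mouse left out 20 to 25 genes were above 0. Without C2 edgeR called 0 of 15987 genes, 8 of the 34 reached an unadjusted p under 0.05 against 12.8% of all genes, and 25 were above 0, with a median log2 fold change of 0.14. The 6 higher ones were Adipoq, Car3, Cfd, Irs1, Nrip1 and Retn (8.17% of all genes were higher), and the lower ones were Lep and Rbp4 (4.6%). Without A5 11 of the 34 reached it, again against 12.8%, but only Irs1 and Nrip1 of these were higher (5.85% of all genes) and 9 were lower (6.95%): Aqp7, Gpam, Gpd1, Lep, Lpin1, Npr3, Orm1, Rbp4 and Tusc5. The median was then -0.10, with 12 genes above 0 and 22 below. Without both mice it was -0.03. A5 was the highest AZ6983 mouse for 25 of the 34 genes, and C2 the highest control for 18. Leaving either out therefore shifts these genes in a direction known beforehand. The counts without them are descriptions and not tests.

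Not all of the 34 genes varied together across mice. Log2 CPM of each of the other 33 was compared with that of Adipoq over the 12 mice (100000 permutations, two-sided, Benjamini-Hochberg adjustment over the 33). All points share their libraries, and the genes were listed together for their cell type. Pearson's r was positive for 28 genes and negative for Lep, Rbp4, Tusc5, Npr3 and Sncg, and 13 passed an adjusted p of 0.05, of which 7 passed in Spearman's rho as well. Without A5 5 passed, namely Cfd, Slc2a4, Slc7a10, Car3 and Adig.

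Car3 had the highest Pearson's r with Adipoq, 0.909 (permutation p = 6e-05, adjusted 0.00198) and rho = 0.853 (permutation p = 0.00072, adjusted 0.00635). Without the 2 mice farthest from the median of Adipoq, C6 and A5, r was 0.873, and within the groups it was 0.917 in controls and 0.901 in AZ6983 mice (exact p = 0.0319 and 0.0208, n = 6 each). For Slc2a4, the highest in rho, r was 0.826 (permutation p = 0.00169, adjusted 0.0115) and rho 0.923 (permutation p = 0.0001, adjusted 0.0033), with r = 0.905 without those 2 mice and 0.909 and 0.850 within the groups. Rbp4 ran the other way, with r = -0.731 (permutation p = 0.00569, adjusted 0.0192) and rho = -0.853 (permutation p = 0.00057, adjusted 0.00635), and r = -0.857 without those 2 mice. Within the groups the Rbp4 relation was -0.878 in AZ6983 mice (exact p = 0.0194, n = 6) and -0.346 in controls (exact p = 0.450, n = 6). Gpd1, the most abundant of the 34 per length, did not follow Adipoq over the 12 mice (r = 0.185, permutation p = 0.561, adjusted 0.591). Within the groups its r with Adipoq was higher, 0.746 in controls and 0.575 in AZ6983 mice (exact p = 0.0944 and 0.240, n = 6 each).

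Over the 12 mice Gpd1 followed Ucp1 instead. The comparison with Ucp1 was added after the values were seen, over all 34 genes in the same way. For Gpd1 r was 0.949 and rho 0.986 (permutation p = 1e-05 for both, the smallest that 100000 draws can give, adjusted 0.00034). Without A5 and A3, the 2 mice farthest from the median of Ucp1, r was 0.977, and within the groups it was 0.934 in controls and 0.974 in AZ6983 mice (exact p = 0.00417 and 0.00556, n = 6 each). Orm1, Gpam, Lpin1, Acsl1, Fabp4, Aqp7 and Acvr1c also passed an adjusted p of 0.05 with Ucp1 over the 12 mice, and without A5 Gpd1 alone did. Retn, Cfd, Nrip1, Irs1, Slc7a10 and Car3 had a negative r with Ucp1 over the 12 mice, of which none passed. Within controls r was 0.732 for Retn, 0.755 for Cfd, 0.0224 for Nrip1, -0.321 for Irs1, 0.751 for Slc7a10 and 0.757 for Car3. Within AZ6983 mice r was -0.500, -0.100, 0.113, 0.633, -0.0237 and 0.302 for these genes in the same order. The negative sign of the pooled r thus did not hold within both groups.

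**Figure D5:**
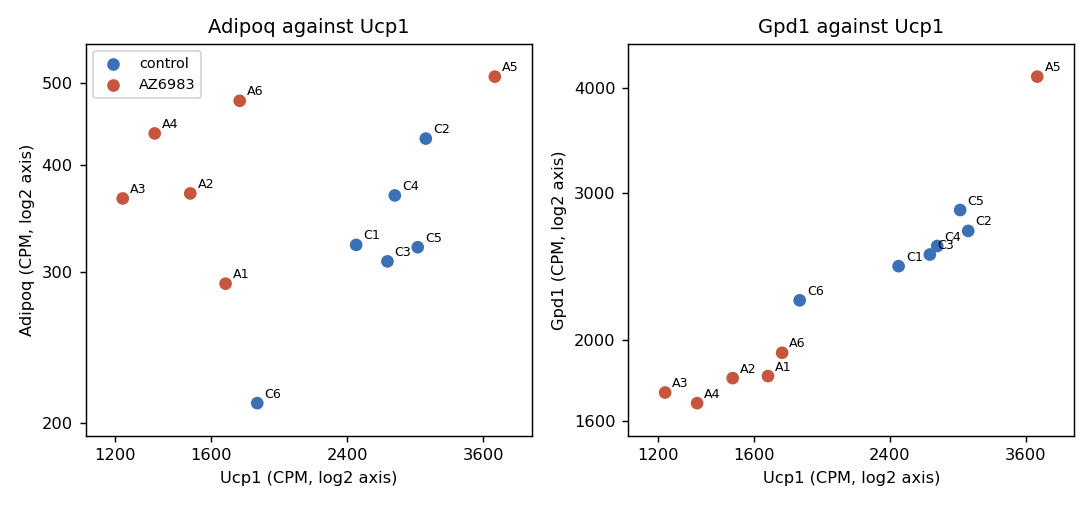
Adipoq (left, y axis) and Gpd1 (right, y axis) are plotted against Ucp1 (x axis) in each of the 12 mice, in CPM on log2 axes, blue for control and red for AZ6983. Gpd1 is higher where Ucp1 is higher in both groups, while for Adipoq the AZ6983 mice other than A5 lie to the left of controls C1 to C5.

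Ucp1 itself was at 1834 CPM (C6) to 3034 CPM (C2) in controls, with a median of 2736 CPM, and at 1228 CPM (A3) to 3728 CPM (A5) in AZ6983 mice, with a median of 1585 CPM. All AZ6983 mice but A5 lay below every control. On the log2 scale AZ6983 minus control was -0.49 (SE 0.251, q = 0.518), and -0.83 without A5 (q = 0.0675), which passed 10% FDR. Over the 12 mice Adipoq and Ucp1 had r = 0.144 (permutation p = 0.663) and rho = 0.119 (permutation p = 0.718), and r = -0.248 without C6 and A5. Within controls r was 0.903 (exact p = 0.025, n = 6) and within AZ6983 mice 0.529 (exact p = 0.282, n = 6). The reason for the lower pooled value was not tested. The ratio of Adipoq to Ucp1 counts, also added after the values were seen, was 0.108 to 0.142 in controls and 0.136 to 0.323 in AZ6983 mice. It was higher in AZ6983 mice by 0.91 on the log2 scale (exact permutation test over 924 assignments, two-sided, p = 0.00433), and 5 of 6 AZ6983 mice lay above every control. Since the ratio was chosen after its values were seen, its p is a description. The ratio also carries the level of Ucp1. For 40.7% of all tested genes at least 5 AZ6983 mice lay above every control in the ratio to Ucp1. The median log2 difference in that ratio over all tested genes was 0.59, and Adipoq was at percentile 88.9 of them. The part of Ucp1 in the difference was not tested.

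Other genes of the same pathways were read from the same fit, in lists that overlap the 34 in no gene. Some of these lists share genes with each other. At 10% FDR edgeR called 0 genes in each of the 14 lists. The counts at an unadjusted p under 0.05 stand beside 7.38% of all tested genes that were higher and 2.81% that were lower at that p. Of 13 tested other genes of triglyceride synthesis 1 reached an unadjusted p under 0.05, Acsl3, an acyl-CoA synthetase (log2 fold change 0.42, q = 0.448). Of 15 genes of the lipid droplet and lipolysis 0 did, and Plin2, a droplet coat protein, had the smallest p (-0.26, q = 0.538). The fat checks Plin1, Lpl and Lipe had log2 fold changes of 0.05, 0.11 and 0.04, and of -0.15, -0.07 and -0.21 without A5. Without A5 6 of the 15 were lower at that p, against 6.95% of all genes, namely Plin2 (-0.43, q = 0.173), Plin3, Plin5, Lipe, Mgll and Cd36. The sum of the 15 was highest in A5 (9880 CPM, against at most 6619 CPM in the other AZ6983 mice). Leaving A5 out thus lowers them by construction, and the count is no test. The median of the list was -0.08 with all mice and -0.21 without A5. Of 12 other adipocyte transcription genes 3 were higher at that p, led by Srebf1, the regulator of fatty acid synthesis, while Pparg, the master regulator of fat cells, was at 0.12 (q = 0.830) with all mice and at -0.13 without A5, which had 238 CPM against 99.2 to 138 CPM in the other AZ6983 mice. Srebf1 was at 112 to 218 CPM in controls and at 249 to 342 CPM in AZ6983 mice, with no overlap between the groups (log2 fold change 1.02, SE 0.155, q = 0.157). Without A5 its q was 0.0662, which passed 10% FDR. The study, which used DESeq2 on all 12 mice, lists Srebf1 as up at 10% FDR.

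Of 12 tested adipokines and receptors 0 reached an unadjusted p under 0.05, with the smallest p for Retnla (log2 fold change -0.42, q = 0.501), a resistin-like protein. Of 13 other insulin signalling genes 1 did, Irs2 (0.45, q = 0.454), the second docking protein of the insulin receptor. It was at 16.5 to 39.6 CPM in controls and at 30.1 to 45.1 CPM in AZ6983 mice, of which 2 lay above every control. Of the 14 tested brown fat markers 1 was lower at that p, Elovl3, a fatty acid elongase, at 62.2 to 120 CPM in controls and 19.1 to 80.9 CPM in AZ6983 mice (-0.87, SE 0.274, q = 0.447). Without A5 7 of the 14 were lower at that p, against 6.95% of all genes. The sum of these markers was highest in A5 (6851 CPM, against at most 3700 CPM in the other AZ6983 mice). Leaving A5 out thus lowers them by construction, and the count is no test. The median of the brown fat markers was -0.12 with all mice and -0.42 without A5.

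Markers of the cells around the fat were given as sums over each whole list. Smooth muscle markers (8 of 8 tested, smallest p Lmod1, q = 0.487) summed to 14141 to 18890 CPM in controls and 11035 to 18907 CPM in AZ6983 mice. Endothelial markers (8 of 8, Vwf, q = 0.447) were at 1097 to 1287 CPM and 1196 to 1400 CPM, and capillary markers of fat (7 of 7, Tcf15, q = 0.529) at 1154 to 1829 CPM and 1230 to 2318 CPM. Macrophage markers (8 of 8, Lyz2, q = 0.694) were at 646 to 1146 CPM and 567 to 1093 CPM, and progenitor and adventitial fibroblast markers (8 of 8, Gli1, q = 0.450) at 742 to 878 CPM and 735 to 971 CPM. Mesothelial markers (6 of 6, Lrrn4, q = 0.771) were at 9.01 to 35.7 CPM and 3.76 to 30.9 CPM, and nerve markers (7 of 7, S100b, q = 0.447) at 288 to 497 CPM and 341 to 405 CPM. Without A5 S100b had a log2 fold change of -1.10 (q = 0.0487), which passed 10% FDR. The study's DESeq2 list, from all 12 mice at 10% FDR, holds S100b as down and Vwf as up. Skeletal muscle markers (10 of 10, Myh2, q = 0.719) ran from 5.88 to 577 CPM in controls and from 17.7 to 574 CPM in AZ6983 mice, the widest range of these lists as a ratio of highest to lowest. In A5 the capillary sum, of which Cd36 was 2000 CPM, was the highest of the 12 mice and the smooth muscle, macrophage and progenitor sums were the lowest.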

How the data were processed

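Total RNA of the thoracic aorta was depleted of ribosomal RNA, made into stranded libraries and sequenced at 2 × 75 bases. The authors deposited raw counts of reads per gene symbol for 12 mice, and the submitters' processing notes name CASAVA 1.8.2, STAR 2.5.2b, HTSeq 0.6.1p1 and mm10 (GRCm38). The annotation is not given in the sources used here. Library sizes and tests leave out 3 rows that name no gene, which held 8.02% to 14.9% (no gene), 18.1% to 23.2% (not unique) and 0.606% to 0.698% (ambiguous) of the table per mouse. Groups came from the sample labels, each mouse is 1 sample, and the column of A1 was matched by 3 of the 4 digits of its number.

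The test was edgeR's quasi-likelihood test on the counts (edgeR 4.0.16, R 4.3.3) with TMM, filterByExpr and no covariate, Benjamini-Hochberg adjustment over all tested genes (q) and 10% FDR. The standard error is the size of the log2 fold change over the root of F. Log2 CPM used a prior count of 2, and correlations used scipy 1.17.1. Alternatives were DESeq2 1.42.0, limma 3.58.1 (voom, plain or with sample weights), other scalings and filters, the no-gene share as a covariate, and each mouse left out. The steps were tested on simulated data. Gene positions and exon lengths came from GENCODE M21 on GRCm38 (34 of 34 genes matched, 33 under their own symbol). The genes, the lists and the tests were chosen with earlier results of these data known. The genes named are all 34, plus the gene of smallest p in each other list and Ucp1, Pparg, Plin1, Lpl and Lipe. Apoe is named as a check of the genotype, and Plin3, Plin5, Mgll, Cd36, Prdm16, Meox2 and Fabp5 were named after their values were seen.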

Additional observations from a re-analysis of the deposited data

Results flagged for a closer look

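In 12 of 72 groups of 6 values examined, 1 mouse lay farther from the rest than Dixon's 95% limit allows. The groups were the 34 genes, Ucp1 and the summed CPM, in controls and in AZ6983 mice. About 3.6 would be flagged by chance if the 72 were independent. They share the same 12 mice, and the sum is made of the 34 genes. An excess over chance can therefore not be read from this count. Mouse A5 was the high value in 8 of the 12 flagged groups. In log2 CPM it was at 12.01 for Gpd1 (the other AZ6983 mice 10.7 to 10.9), 9.49 for Agpat2 (8.47 to 8.77), 8.64 for Lpin1 (7.67 to 7.95), 6.39 for Aqp7 (4.998 to 5.45), 6.70 for Npr3 (5.62 to 5.95), 6.55 for Nat8l (5.57 to 5.80) and 11.9 for Ucp1 (10.3 to 10.8). Its summed CPM was 19686, against 11010 to 13558 in the other AZ6983 mice.

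Mouse C6 was the outlying control for 3 genes, in opposite directions. It was at 5.85 log2 CPM for Lep (the other controls 2.28 to 3.43), at 7.42 for Gpam (8.20 to 8.49) and at 9.17 for Pck1 (9.93 to 10.4). Mouse A1 was at 6.25 log2 CPM for Rbp4, above the other AZ6983 mice at 5.75 to 5.93. Mouse C2 passed this limit for 0 genes.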

How the results depend on the processing

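No paired analysis was possible because the labels give no replicate numbers that the groups share. The count of genes called at 10% FDR was 0, and became 92 and 84 with DESeq2 (its defaults, and the genes that passed edgeR's filter), 4 with limma-voom and sample weights, 2 with scaling by library size alone, 11 without both C2 and A5 (added after seeing the data) and 0 to 27 with single mice left out (27 without A5). Of the 34 genes 0 were called in these fits except 0 to 1 with single mice left out (Gpd1 without A5). Genes free of overlap between the groups were 0, and 0 to 2 with a mouse left out (Car3 without C2, Rbp4 without A1, Nrip1 without A3, Gpd1 and Lpin1 without A5), against 1.37%, 1.37%, 0.769% and 1.07% of all tested genes in these 4 comparisons. With scaling by library size alone 6 genes, not 13, followed Adipoq, and without A5 1, not 8, followed Ucp1. The summed CPM difference, AZ6983 minus control, was 447 CPM and ran from -853 (without A5) to 1140 (without C2).

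Log2 fold changes near 0 changed sign. With limma-voom and sample weights they were -0.0185 for Cebpa, -0.0201 for Cebpb, -0.0199 for Agpat2, -0.0929 for Pck1, -0.0574 for Pnpla3, -0.226 for Aqp7 and -0.0695 for Nat8l, and with plain limma-voom -0.0253 for Aqp7 and -0.00581 for Nat8l. With the no-gene share as a covariate they were -0.109 for Cebpb, -0.00192 for Agpat2, -0.154 for Pnpla3, -0.00686 for Pfkfb3, -0.226 for Slc7a10 and -0.103 for Nat8l. With library size alone they were -0.0225 for Pnpla3 and -0.0182 for Nat8l, and without a filter -0.00448 for Pnpla3. Without both C2 and A5 they were -0.0388 for Agpat2, -0.0309 for Pck1, -0.0816 for Pnpla3, -0.24 for Aqp7, -0.0207 for Cd300lg and -0.106 for Nat8l. With single mice left out the ranges were -0.208 to 0.0229 for Acsl1, -0.205 to 0.0831 for Acvr1c, -0.124 to 0.14 for Agpat2, -0.251 to 0.132 for Aqp7, -0.0347 to 0.25 for Cd300lg, -0.0197 to 0.27 for Cebpa, -0.0878 to 0.212 for Cebpb, -0.0233 to 0.172 for Dgat1, -0.282 to 0.0187 for Fabp4, -0.181 to 0.0762 for Nat8l, -0.117 to 0.0895 for Pck1, -0.00553 to 0.309 for Pfkfb3 and -0.163 to 0.0762 for Pnpla3. The cause of these changes was not tested. The other 20 genes kept their sign in every fit listed, and 0 of the 34 besides Gpd1 crossed the threshold. Slc7a10, with 33 counts in 1 control, is the gene whose precision depth limits most.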
